A study of Bos taurus with 20 samples.

Results

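The hedgehog pathway was followed through 10 genes in skin of cattle that differ in their horns: the ligands SHH and IHH, the receptor PTCH1, the signal carrier SMO, the transcription factors GLI1, GLI2 and GLI3, their inhibitor SUFU, and the ligand-binding proteins HHIP and SCUBE1. Members were the array probes named for one of these genes or described as that gene. This gave 14 of the 21475 probes of the array, at least 1 for each of the 10 genes. After the requirement of a signal well above background, 8 genes with 1 probe each could be tested between horn types. No member differed between horn types at an adjusted p under 0.05. At an unadjusted p under 0.05, HHIP had higher and SCUBE1 lower fitted values in polled than in horned skin. HHIP was well above background in polled animals alone and so passed the filter through them, and SCUBE1 was not well above background in 2 of the 4 polled animals. SHH was not well above background in any animal.

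The samples were skin biopsies of epidermis, dermis and dermal connective tissue taken over the part of the skull where horns form. They came from 4 polled animals (hornless, 3 females and 1 male), 4 scurred animals (with loose, incomplete horn growths, 1 female and 3 males) and 3 horned animals (1 female and 2 males). Each of chips 1 to 4 carried 4 two-colour arrays comparing its polled, scurred and horned animal, and horned animal 2 was used on chips 2 and 4. On chips 1, 3 and 4 the polled animal was female and the scurred animal male. Without chip 2, scurred minus polled is therefore told from sex only through the horned animals. Chip 5 compared the horn site of polled animal 3 and of scurred animal 2 with a control site of the same animal's skull, away from the horn region. No genotype, breed or age is given in the sources used here. These are bulk samples, so fewer cells of a type and less RNA per cell cannot be told apart.

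As background, hedgehog ligands are lipid-modified secreted proteins that bind PTCH1 and so release SMO from repression at the primary cilium. SMO activity lets the GLI proteins act as activators, while SUFU holds them back in its absence. PTCH1, GLI1 and HHIP are themselves transcribed in response to the signal, PTCH1 and HHIP being negative feedback. In skin the pathway is best known from the hair follicle, where the epithelium makes SHH and both epithelium and dermal papilla respond, and IHH is best known from growing cartilage.

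What each value means depends on the sequence on the array, so the probes that the results turn on are shown first, 5′ to 3′, as given in the array files. Each sequence shown whole has 60 bases and at least 1 reading frame without a stop codon. Of the other probes only the last 30 bases are shown. Capitals mark the motif AATAAA.
SHH: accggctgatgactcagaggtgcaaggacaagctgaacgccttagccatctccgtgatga
PTCH1: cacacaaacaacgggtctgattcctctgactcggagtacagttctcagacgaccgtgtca
SMO: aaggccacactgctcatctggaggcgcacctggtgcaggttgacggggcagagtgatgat
SCUBE1: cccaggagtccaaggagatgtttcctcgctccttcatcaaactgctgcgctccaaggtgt
HHIP, main probe, last 30 bases: taacaagttacattgtatagtttctgggac
HHIP, second probe: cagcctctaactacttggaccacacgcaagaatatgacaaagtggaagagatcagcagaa
GLI1 description, last 30 bases: ttataatgacactgtttcctgatAATAAAg
SUFU, main probe, last 30 bases: gtgcattaaatgtatttgcagaagtgaaaa
SUFU, second probe, last 30 bases: aactcagagcttcaaggcagatccacctgg

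The probe described as GLI1 needs care. The identifier it carries belongs to ARHGAP9 in the RefSeq gene table of assembly ARS-UCD2.0, where ARHGAP9 and GLI1 are neighbours on chromosome 5. Its 60 bases had 0 open reading frames. They held the motif AATAAA, searched on the probe's strand. Of the 14 member probes 2 held it, this one and that of IHH, beside 11.8% of the 21475 probes of the array, which are 45 to 60 bases long. The opposite strand held it in 3.88% of all probes and in 0 member probes. Whether this probe reads GLI1 or ARHGAP9 cannot be told apart here, and every value given below for GLI1 is that of this probe. A second probe, described as ARHGAP9 and carrying the same identifier, had a mean intensity of 126.9 and a fitted polled minus horned difference of −0.08 on the log2 scale. Over the 8 differences from horned animals, which share 3 horned animals, the probes described as GLI1 and as ARHGAP9 had r 0.649.

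Several other genes had more than 1 probe, and these did not tell the same story. PTCH1 had 3, of which the one tied to PTCH1 in RefSeq was well above background in 96.25% of its spots. These are 2 spots in each of the 40 array channels (20 arrays with 2 dyes each). The other probes, described as similar to patched homolog 1, carry identifiers that were not matched in the table, and they were well above background in 0% and 2.5% of spots. The main HHIP probe reached 32.5% and the second 5%. For SUFU the main probe was well above background in 100% of spots at a mean intensity of 2902, and the second in 25% at a mean of 101.7. Different probes have different binding strength, so intensities are not set against each other as expression.

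Across all arrays, 62.24% to 73.75% of spots were well above background and at most 2 spots were saturated, none of them a member's. When the dyes were exchanged between the same animals, the log ratios turned sign, with r from −0.943 to −0.817 over the probes of chips 1 to 4 and of −0.705 and −0.665 over those of chip 5; probes are not independent replicates. For the members tested, polled minus horned had the same sign in both dye orders in 84.38% of 32 cases, with a median gap of 0.15 on the log2 scale. For all tested probes these values were 76.24% and 0.16. All 10 dermal fibroblast markers and 8 of 11 epidermis markers were well above background in every animal, but only 4 of 9 hair follicle matrix and sheath markers were. The bone marker SP7, the dermal papilla marker CORIN and the lymphocyte markers CD3D, CD79B and MS4A1 were well above background in no animal.

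The ligands stand first in the pathway, and neither SHH nor IHH could be tested. The ligand DHH, not a member, was tested among the other pathway genes described below. Its polled minus horned difference was −0.44 (SE 0.20, adjusted p = 0.561 in limma), and scurred minus horned −0.30 (SE 0.19, adjusted p = 0.9998 in limma). The SHH probe was well above background in 0% of channels, and its intensity, between 65.46 and 97.8, exceeded the 95th percentile of the array's 153 negative control spots in 1 of 40 channels. Median negative control intensities ran from 64.65 to 95.72 over the same channels. Group means of the normalized log2 level of SHH were 6.17 ± 0.04 in polled (SD, n = 4), 6.17 ± 0.05 in scurred (SD, n = 4) and 6.17 ± 0.02 in horned skin (SD, n = 3). SHH was therefore not measured above background at either horn or control site, and no test was made.

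IHH passed background in 7.5% of spots and, by the rule that at least 0.5 of an animal's spots be well above background, in 1 animal, scurred 4. Its level was 6.24, 6.28, 6.20 and 6.23 in polled animals 1 to 4, and 6.31, 6.24 and 6.19 in horned animals 1 to 3. In scurred animals 1 to 4 it was 6.50, 6.21, 6.17 and 6.70. Scurred animals 1 and 4 stood above the other animals, while the remaining scurred animals lay among the polled and horned ones. With a single animal above background the gene was not tested.

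**Figure D1:**
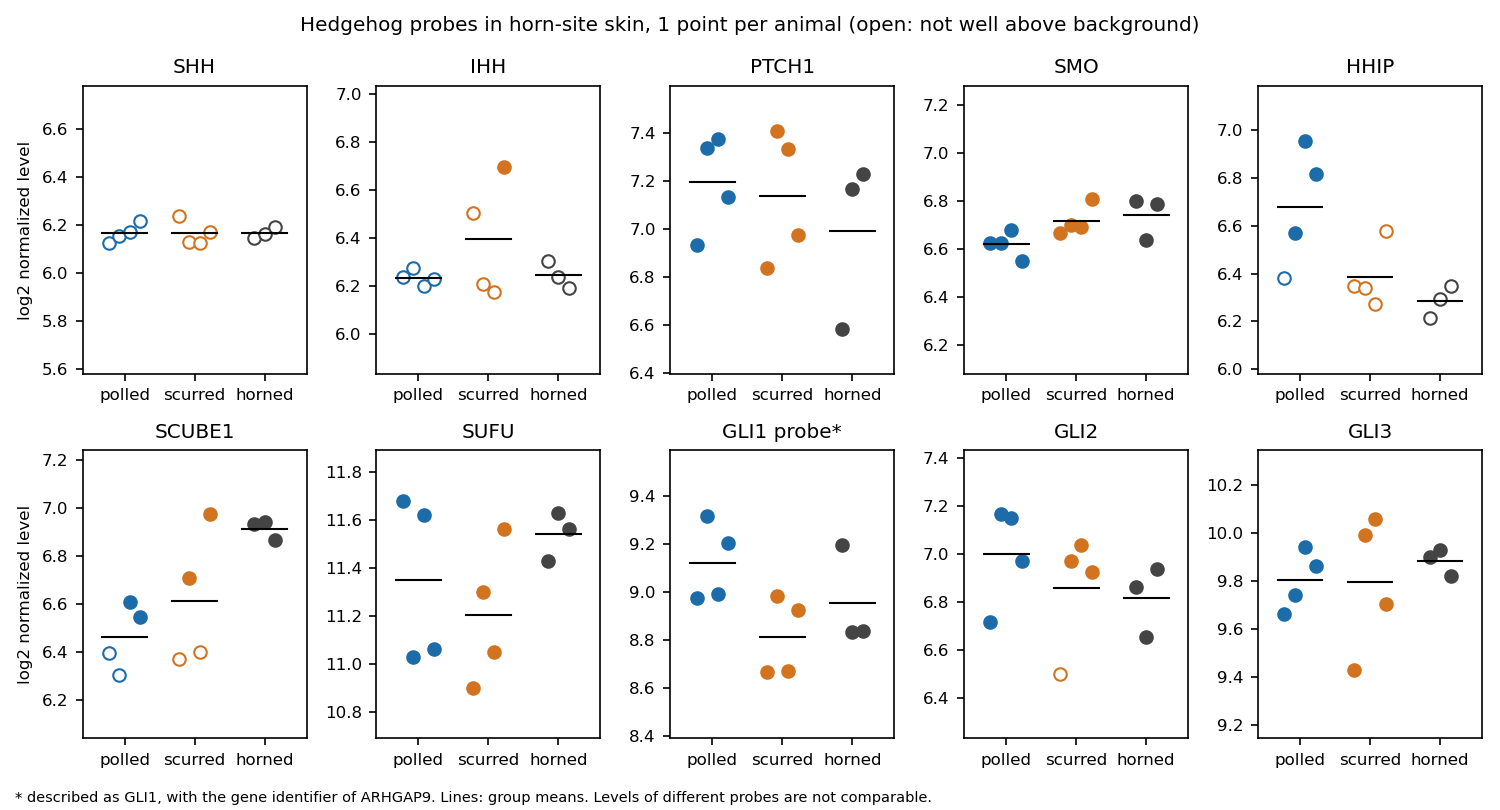
Normalized log2 level (vertical axis) of the main probe of each of the 10 genes in horn-site skin of 4 polled, 4 scurred and 3 horned animals; filled points are animals in which the probe was well above background, open points those in which it was not, and black lines are group means. HHIP is filled in 3 polled animals only, SCUBE1 is highest in the horned group apart from scurred 4 at 6.98, and SHH is open throughout; the starred GLI1 probe carries the gene identifier of ARHGAP9.

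PTCH1, the receptor and a feedback target of the pathway, was well above background in all 11 animals. Its level was 6.93, 7.34, 7.38 and 7.13 in polled animals 1 to 4, 6.84, 7.41, 7.33 and 6.98 in scurred animals 1 to 4, and 6.58, 7.17 and 7.23 in horned animals 1 to 3. Horned animal 1 was the lowest of all, and the 3 groups overlapped. Set against the horned animal of the same chip, 3 of 4 polled and 3 of 4 scurred animals were higher. The fitted log2 difference was 0.14 (SE 0.12, 95% interval −0.15 to 0.43) for polled minus horned and 0.11 (SE 0.12, −0.16 to 0.38) for scurred minus horned, with adjusted p of 0.743 and 0.9998 in limma. Without polled animal 2 the first was −0.03 and without chip 2 −0.05. Scurred minus polled was −0.03 (SE 0.12, −0.31 to 0.25), and 0.21 without chip 2, where the polled animals left were all female and the scurred all male. The intervals leave out changes beyond 1.34-fold higher in polled and 1.30-fold higher in scurred than in horned skin, on this scale, which compresses the differences of dim probes.

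SMO, the membrane protein that passes the signal on, showed the narrowest range of levels among the genes tested. The probe was dim, with a mean intensity of 114.2, and the scale compresses the differences of dim probes. Its level was 6.63, 6.62, 6.68 and 6.55 in polled, 6.67, 6.70, 6.69 and 6.81 in scurred, and 6.80, 6.64 and 6.79 in horned animals. It was lower than in the horned animal of the chip in 4 of 4 polled animals, by between 0.02 and 0.20, and higher in the scurred than in the polled animal of the chip on 4 of 4 chips. The size was small against the error. Polled minus horned was −0.10 (SE 0.10, adjusted p = 0.777 in limma) and scurred minus polled 0.07 (SE 0.10, adjusted p = 0.951 in limma). On the scanner software's processed signals polled minus horned was −0.39 (SE 0.24, adjusted p = 0.641 in limma). The 2 dye orders of polled minus horned differed in sign on chip 2 (−0.08 and 0.04) and on chip 3 (−0.24 and 0.05).

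HHIP, which binds hedgehog ligand and removes it from signalling, gave its highest mean level in polled animals. The level was 6.38, 6.57, 6.95 and 6.81 in polled animals 1 to 4, against 6.21, 6.29 and 6.35 in horned animals 1 to 3. The lowest polled animal (6.38) and all horned animals were not well above background, so the gap between these groups is one between values at background. The share of all probes without overlap between them was not counted. In scurred animals 1 to 4 it was 6.35, 6.34, 6.28 and 6.58, overlapping both. The probe had a spot well above background in 9 of 12 channels of polled animals and in 0 of 8 and 0 of 12 channels of scurred and horned animals. HHIP thus passed the filter through polled animals alone and had to lean that way, so its direction is no support for a difference.

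Against the horned animal of the chip, HHIP was higher by 0.17, 0.29, 0.56 and 0.40 in polled animals 1 to 4. The fitted difference was 0.35 on the log2 scale (SE 0.13, 95% interval 0.04 to 0.66), with an unadjusted p of 0.0325 and an adjusted p of 0.523 in limma. The measured group means were 6.68 and 6.28, but horned skin gave only a bound. On these arrays the polled mean lay 1.18-fold above that bound. This ratio takes no account of the spread among animals, and the polled mean includes channels not well above background, so it is no support for a difference. The bound takes the lowest signal well above background on each array in place of a dimmer value, per dye channel. The polled mean lay 1.12-fold above the bound for scurred skin, with the same limits. The fitted scurred minus polled difference was −0.26 (SE 0.13, adjusted p = 0.844 in limma), lower on 4 of 4 chips, and −0.40 without polled animal 2. Scurred minus horned was 0.09 (SE 0.13), with the probe not well above background on any array of either group. On the scanner software's processed signals, which carry no added offset, polled minus horned was 2.22 (SE 0.55, adjusted p = 0.351 in limma) and scurred minus polled −1.46 (SE 0.54, adjusted p = 0.948 in limma). The second HHIP probe was not well above background, with differences from horned skin of 0.10, 0.06, 0.02 and 0.11 in polled animals 1 to 4.

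SCUBE1, a secreted and membrane-associated glycoprotein of a family that helps release the lipid-bearing ligand from cells, ran the other way. Its level was 6.93, 6.94 and 6.87 in horned animals 1 to 3, within a range narrower than that of either other group. In polled animals 1 to 4 it was 6.39, 6.30, 6.61 and 6.55, all below the lowest horned animal. The share of all probes without overlap between these groups was not counted. In scurred animals 1 to 4 it was 6.37, 6.71, 6.40 and 6.98, so that scurred 4 was at the horned level and scurred 1 and 3 at the polled level. The probe was well above background in all 3 horned, 2 polled and 2 scurred animals, and had a spot well above background in 12 of 12 channels of horned and 7 of 12 of polled skin. In polled animals 1 and 2 its level was not well above background.

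Against the horned animal of the chip, SCUBE1 was lower by 0.53, 0.69, 0.25 and 0.29 in polled animals 1 to 4. The fitted polled minus horned difference was −0.49 (SE 0.18, 95% interval −0.92 to −0.06), with an unadjusted p of 0.0313 and an adjusted p of 0.523 in limma. Without polled animal 2 it was −0.18 (adjusted p = 1 in limma), without chip 2 it was −0.14, and on the processed signals it was −1.61 (SE 0.54, adjusted p = 0.435 in limma). With each dim value replaced by the lowest signal well above background, the mean level of polled skin was 6.52, against a measured 6.90 in horned skin. Scurred minus horned was −0.28 (SE 0.17, adjusted p = 0.9998 in limma), with 3 of 4 scurred animals lower, and −1.31 on the processed signals. Scurred minus polled was 0.21 (SE 0.18), with 2 of 4 pairs each way. It was −0.18 without polled animal 2, and −0.24 without chip 2, where the polled animals left were all female and the scurred all male.

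SUFU, the cytoplasmic inhibitor that holds GLI proteins back, had the largest standard errors of the genes tested. The main probe gave 11.68, 11.03, 11.62 and 11.06 in polled, 10.90, 11.30, 11.05 and 11.56 in scurred and 11.43, 11.63 and 11.56 in horned animals. Polled animals 1 and 3 were at the level of the horned group and polled animals 2 and 4 well below it. Polled minus horned was −0.27 (SE 0.23, adjusted p = 0.732 in limma), and scurred minus horned −0.30 (SE 0.22, adjusted p = 0.9998 in limma), lower in 4 of 4 scurred animals. The first was −0.17 without polled animal 4 and the other −0.15 without scurred animal 1. Scurred minus polled was −0.03 (SE 0.22), with 2 of 4 chips each way. The spread among animals of 1 horn type was as large as these differences.

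GLI1, a transcription factor that the pathway itself switches on, is represented by the probe that carries the ARHGAP9 identifier. It was well above background in every channel. Its level was 8.98, 9.32, 8.99 and 9.20 in polled, 8.67, 8.99, 8.67 and 8.93 in scurred and 9.20, 8.83 and 8.84 in horned animals, so the groups overlapped. The scurred animal was lower than the polled animal on 4 of 4 chips, by 0.31, 0.30, 0.33 and 0.17. The fitted scurred minus polled difference was −0.34 (SE 0.14, 95% interval −0.68 to −0.01), or 0.789 of the polled level, with an unadjusted p of 0.0468 and an adjusted p of 0.827 in limma. Without chip 2 it was −0.68 (SE 0.30), where the polled animals left were all female and the scurred all male. It was −0.52 without scurred animal 2. It was −0.24 without horned animal 2 and −0.28 without scurred animal 1, where the unadjusted p rose to 0.161 and 0.101 in limma. None of these was called after adjustment. Polled minus horned was 0.19 (SE 0.15), higher in 3 of 4 animals and −0.08 without horned animal 2, and scurred minus horned −0.15 (SE 0.14), with 2 of 4 each way.

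GLI2, the main activator among the GLI factors, followed a similar order at lower brightness. Its level was 6.72, 7.17, 7.15 and 6.97 in polled, 6.50, 6.97, 7.04 and 6.93 in scurred and 6.86, 6.65 and 6.94 in horned animals. The scurred animal was again lower than the polled animal on 4 of 4 chips, by between 0.06 and 0.23, and the fitted difference was −0.21 (SE 0.15, adjusted p = 0.873 in limma). It was −0.10 without polled animal 2 and −0.14 without scurred animal 1, but −0.42 without scurred animal 2. Without chip 2, where the polled animals left were all female and the scurred all male, it was −0.45 (SE 0.31). Polled minus horned was 0.21 (SE 0.16, adjusted p = 0.693 in limma), which was gone without horned animal 2 (−0.00081), and scurred minus horned −0.01 (SE 0.15).

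Across the 8 differences from horned animals, GLI1 and GLI2 had the highest correlation of any pair of members, at r 0.966. These differences share 3 horned animals, 1 of which stands behind 4 of them. Across the levels of the 11 animals r was 0.493 (Spearman correlation 0.536), and 0.0084 without the 2 animals farthest from the median of GLI1, so the relation of the levels rested on those animals. It is given as a description of these arrays.

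GLI3, which acts mainly as a repressor when no ligand is present, was bright in every channel and differed little. Its level was 9.67, 9.74, 9.94 and 9.86 in polled, 9.43, 9.99, 10.06 and 9.71 in scurred and 9.90, 9.93 and 9.82 in horned animals. The scurred animals spread widest, from the lowest to the highest value of all. Polled minus horned was −0.12 (SE 0.16, adjusted p = 0.847 in limma) and 0.03 without horned animal 1, scurred minus horned −0.04 (SE 0.16) and scurred minus polled 0.08 (SE 0.16).

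**Figure D2:**
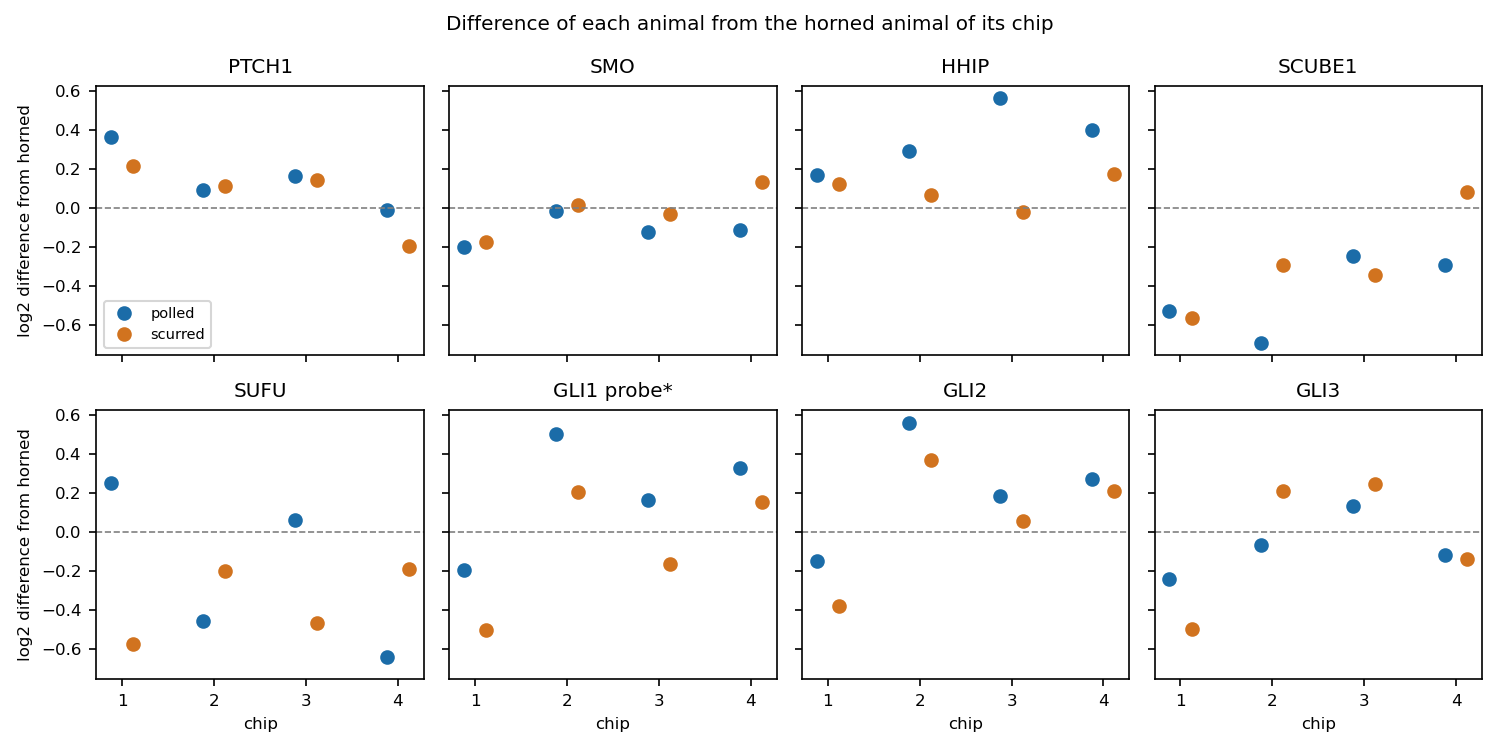
Log2 difference of each polled (blue) and scurred (orange) animal from the horned animal of its chip (vertical axis) by chip (horizontal axis), for the 8 genes tested; the dashed line is 0 and values are not adjusted for sex. HHIP is above 0 in 4 of 4 polled animals, SCUBE1 is below 0 in 4 of 4 (each with animals at background), and for GLI1 (the starred probe with the ARHGAP9 identifier) and GLI2 the orange point is below the blue one on every chip.

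The members were then read against all tested probes. By limma at an adjusted p under 0.05, 0 of 8 members were called between polled and horned skin, where 1 of 15712 tested probes was (0.00636%), and 0 of 8 in either comparison of scurred skin, where 0 probes were (0% for both). At an unadjusted p under 0.05 the members counted 2 of 8 (HHIP and SCUBE1) for polled against horned skin, beside 9.3% of all tested probes. They counted 0 of 8 for scurred against horned skin, beside 3.73%, and 1 of 8 (GLI1) for scurred against polled skin, beside 6%. The median of the 8 fitted differences was 0.02, −0.04 and −0.03 on the log2 scale in these comparisons, against 0.01, 0.01 and −0.01 for all tested probes. The median absolute difference was 0.20, 0.10 and 0.14, against 0.17, 0.13 and 0.15. HHIP is among those counted although it passed the filter through polled animals alone.

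The direction was the same in all 4 animals for SMO, HHIP and SCUBE1 between polled and horned skin, 3 of 8 members beside 27.3% of tested probes. Between scurred and horned skin this held for SUFU only, 1 of 8 beside 18.2%. Between scurred and polled skin it held for SMO, GLI1, GLI2 and HHIP, 4 of 8 beside 19%. HHIP passed the filter through polled animals alone, so its direction in both counts is no support for a difference. The signs are not adjusted for sex, and on every chip but chip 2 the scurred animal was male and the polled one female. Polled and scurred skin are compared with the same horned animals, so the first 2 sets of values share their controls.

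**Figure D3:**
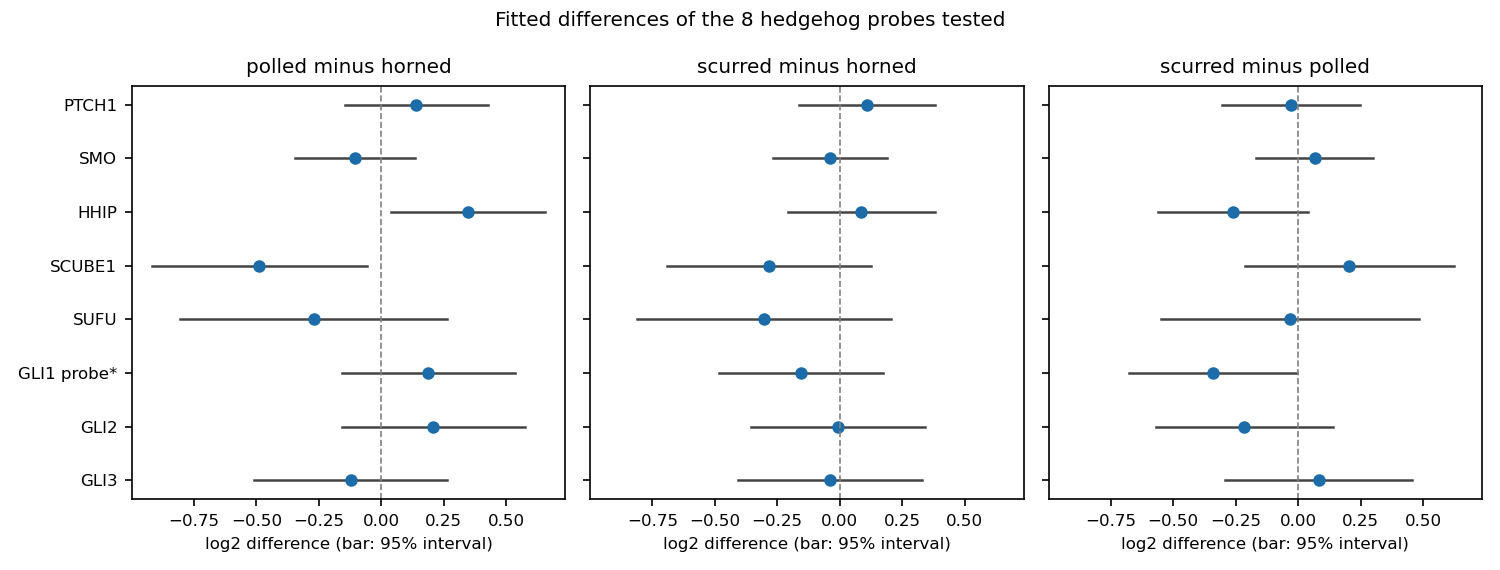
Fitted log2 differences (points, horizontal axis) with 95% intervals (bars) for the 8 genes tested, in polled minus horned, scurred minus horned and scurred minus polled skin. The intervals of HHIP and SCUBE1 leave out 0 in the first comparison and that of GLI1 (the starred probe with the ARHGAP9 identifier) just does in the third; after adjustment over 15712 probes no member passed.

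Sex was a term of the same fit, and 0 of 8 members were called between males and females by limma, beside 3 of 15712 probes (0.0191%). At an unadjusted p under 0.05 the count was also 0 of 8, beside 2.09%. Fitted male minus female differences ran from −0.26 for SUFU (SE 0.20) to 0.13 for GLI1 (SE 0.13).

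The rest of the pathway was described through 3 lists: 15 genes of ligand release and reception, 19 of the cilium and of GLI processing, and 17 genes named as targets in other tissues. By limma no gene of them was called at an adjusted p under 0.05 in any comparison of horn types. The lists had 13, 19 and 14 genes tested. At an unadjusted p under 0.05 they counted 1, 1 and 2 genes for polled against horned skin, beside 9.3% of all tested probes. They counted 0, 0 and 2 for scurred against horned skin, beside 3.73%, and 2, 0 and 2 for scurred against polled skin, beside 6%. Of ligand release and reception, 13 genes were tested, with 10 lower and 3 higher in polled than in horned skin and a median of −0.38, beside 0.01 for all tested probes. Of all 15712 tested probes 7525 were lower. In scurred against polled skin 10 of the 13 were higher, with a median of 0.14, beside 7590 of 15712 probes and a median of −0.01. Both comparisons use the same polled animals, so these counts are not independent. Of the 19 cilium and GLI processing genes 10 were higher and 9 lower in polled skin, with a median of 0.01. Of 14 target genes tested, 7 were higher and 7 lower, with a median of −0.04. The targets FOXE1, FOXL1 and NKX2-2 were well above background in no animal.

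Genes of these lists with an unadjusted p under 0.05 in at least 1 comparison of horn types were few. LRP2 (megalin), an endocytic receptor that can take up SHH, differed from horned skin by 0.01, 2.44, 1.25 and 2.10 in polled animals 1 to 4 and by −0.92, 1.51, 0.88 and 1.08 in scurred animals 1 to 4. Polled animal 1 and scurred animal 1 were apart from the others. The fitted polled minus horned difference was 1.43 (SE 0.42, adjusted p = 0.482 in limma), and scurred minus polled −1.03 (SE 0.41, adjusted p = 0.800 in limma). HHAT, the enzyme that attaches palmitate to the ligand, was higher in scurred than in polled skin by 0.31 (SE 0.12, adjusted p = 0.793 in limma), on 4 of 4 chips.

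PRKACB, a catalytic subunit of protein kinase A, which phosphorylates GLI proteins for processing, had a polled minus horned difference of −0.56 (SE 0.22, adjusted p = 0.525 in limma), negative in 4 of 4 animals. Among the targets, RAB34, a small GTPase needed for cilium formation, had a polled minus horned difference of −0.45, negative in 4 of 4 animals (SE 0.12, adjusted p = 0.469 in limma). It was higher in scurred than in polled skin by 0.39 (SE 0.12, adjusted p = 0.793 in limma). SFRP1, a secreted WNT antagonist, had a polled minus horned difference of −1.42 (SE 0.45, adjusted p = 0.486 in limma), negative in 4 of 4 animals.

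MYCN, a growth-promoting transcription factor, had a scurred minus polled difference of −0.79 (SE 0.20, adjusted p = 0.792 in limma), negative on 4 of 4 chips. PTHLH, a signalling peptide that responds to IHH in growing cartilage, was higher in 4 of 4 scurred animals than in horned skin, by 2.79, 1.06, 0.64 and 0.87. Its fitted difference was 1.27 (SE 0.53, adjusted p = 0.9998 in limma). Scurred animals 1 and 4 had the highest IHH levels, but in scurred animal 1 IHH was not well above background. The PTHLH difference was largest in scurred animal 1 but not next largest in scurred animal 4. A relation between IHH and PTHLH was not tested.

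By the correlation of the 8 differences from horned animals, the genes most like PTCH1 among 11987 candidates were SIN3A, a scaffold of transcriptional repressor complexes (r 0.953), CHRNB2, an acetylcholine receptor subunit (r 0.947), and MTCP1 (r 0.942). Those most like the GLI1 probe were ZBTB40 (r 0.982), UBQLN1, a protein of ubiquitin-linked degradation (r 0.975), and LRP2 (r 0.969). These are the highest of many correlations over 8 points that share 3 horned animals. SHH was not tested and has no such list.

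Markers of cell types were read beside these values. Epidermis markers were higher in polled than in horned skin in 11 of 11 genes (median 1.78), and per animal their median difference from horned skin ran from 1.08 to 2.22 in polled and from −0.32 to 2.42 in scurred animals. Dermal fibroblast markers were lower in polled skin in 10 of 10 genes (median −0.81), with per-animal medians from −1.29 to −0.09. Hair follicle matrix and sheath markers were higher in 5 of 7 genes (median 1.03), with per-animal medians of 0.004, 2.15, 0.02 and 1.10 in polled animals 1 to 4. GLI1, GLI2 and LRP2 were highest against horned skin in polled animal 2, and GLI1 and LRP2 next highest in polled animal 4. Both polled animals were set against the same horned animal 2, so its values enter all of these differences and those of the markers. Without horned animal 2 the fitted GLI1 polled minus horned difference was −0.08. HHIP was highest in polled animal 3 and PTCH1 in polled animal 1. In scurred against polled skin the hair follicle markers were lower in 5 of 7 genes (median −0.89) and fibroblast markers higher in 10 of 10 (median 0.87). Dermal papilla markers, a list that includes HHIP, had 3 of 8 genes higher and 5 lower in polled skin (median −0.42). No marker of these lists was called at an adjusted p under 0.05 by limma, and the part of tissue makeup in the hedgehog values was not tested. Skeletal muscle markers had per-animal medians between −2.67 and 3.79 against horned skin.

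Within single animals, the horn site was compared with a control site of the skull in polled animal 3 and scurred animal 2. At the horn site of polled animal 3 the GLI1 probe was higher by 0.69 and 0.45 in the 2 dye orders (mean 0.57), and in scurred animal 2 lower, by −0.25 and −0.73 (mean −0.49). On these arrays the level of the probe was 8.98 at the horn site of polled animal 3 and 9.31 at that of scurred animal 2. At their control sites it was 8.41 and 9.80. Both control sites lay outside the range of horn-site levels on chips 1 to 4, from 8.67 to 9.32. On chip 2 the horn site of scurred animal 2 was at 8.99. HHIP gave 0.33 and 0.54 in polled animal 3 (mean 0.44) and −0.45 and −0.43 in scurred animal 2 (mean −0.44). It was well above background in 2 of 2 channels at the horn site of polled animal 3 and at the control site of scurred animal 2. At the polled control site some of its spots were so in 1 of 2 channels, and at the scurred horn site in 0 of 2. HHIP thus passed the background rule through the RNAs where it was high, so its signs are no support for a difference. For scurred animal 2 there is only a bound, the control site measuring at least 1.31-fold higher on these arrays of 1 animal. GLI2 was 0.09 in polled animal 3 and −0.48 in scurred animal 2, and PTCH1 was 0.27 and −0.01. SMO, GLI3 and SUFU lay between −0.12 and 0.26 in both animals. With 1 animal of each horn type the difference between them was not tested.

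Over the 2 animals together, 0 of 7 genes were called by limma at an adjusted p under 0.05 (0% of 15290 probes tested on chip 5) and 0 of 7 at an unadjusted p under 0.05, beside 4.71%. The sign was the same in both animals for SUFU only, 1 of 7 beside 50.5%, with a mean of 0.17 (SE 0.13, adjusted p = 0.969 in limma). SCUBE1 did not pass the background rule there. In scurred animal 2 the horn site also had more signal from skeletal muscle markers, with a median of 3.53 over 9 genes, and from endothelium markers, with a median of 0.87 over 10. In polled animal 3 these medians were 0.11 and 0.02. Hair follicle markers had medians of −0.48 in scurred animal 2 and 0.05 in polled animal 3, fibroblast markers 0.43 and 0.007, and dermal papilla markers 0.28 and −0.12. The part of these cells in the site values was not tested.

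**Figure D4:**
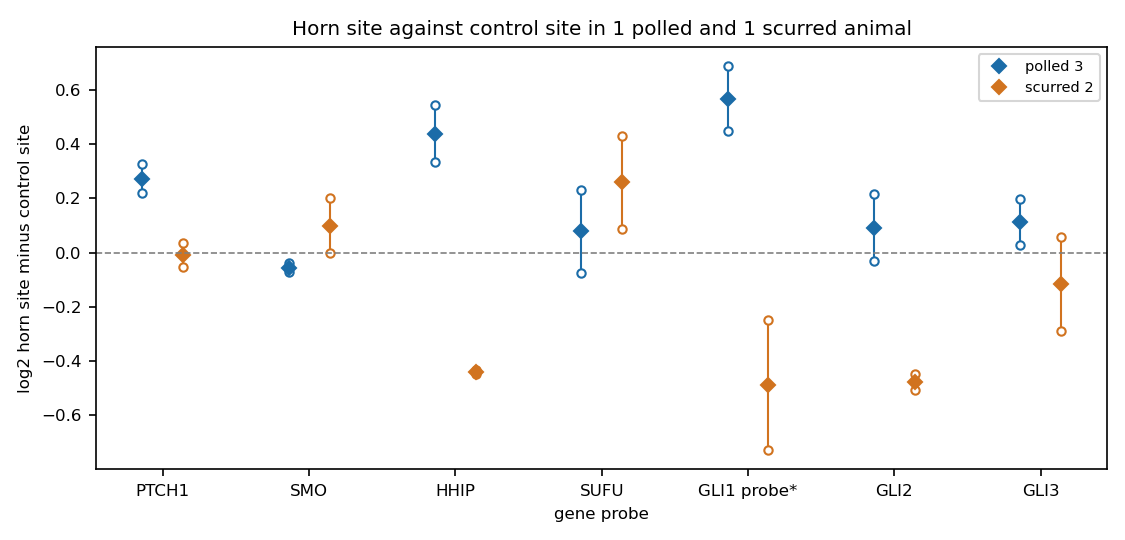
Log2 difference of horn site minus control site (vertical axis) for 7 genes in polled animal 3 (blue) and scurred animal 2 (orange); diamonds are means of the 2 dye orders, which are the open circles joined by lines, and the dashed line is 0. The GLI1 probe (starred, with the ARHGAP9 identifier) is at 0.57 and −0.49, with both dye orders on the same side of 0 in each animal; HHIP, at 0.44 and −0.44, was well above background in 2 of the 4 RNAs only, so its values are set against RNA at or near background.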

How the data were processed

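Skin RNA was measured on 20 two-colour Agilent arrays. The deposited scanner files give spot brightness as an intensity in each dye. They were made with Agilent Feature Extraction 9.5.1, per the submitters' processing notes. The deposited log ratios are log10 values of red over green. The table deposited for the series holds the same log10 ratios, checked against the scanner files: 14 columns had a slope of 1 and 6, from exchanged dyes, of −1, and column medians lay between −0.019 and 0.00971, so its scale is log10, its centre near 0 and its direction known. They were turned to log2 for use as an alternative.

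Intensities were corrected with normexp (offset 50, which shrinks differences of dim probes) and each array's log ratios were loess-normalized (limma 3.58.1, R 4.3.3, package data.table at 1.17.8). Outlier spots were left out and repeated spots of a probe averaged. A probe was tested when at least 0.5 of an animal's spots were well above background in at least 3 of 11 animals (15712 probes), or in 2 of the 4 RNAs of chip 5 (15290 probes). Arrays were reduced to 1 value per animal with a dye term. Then 1 least squares fit had terms for horn type, sex and block, a block being a set of animals joined by arrays. It gave moderated two-sided tests with 5 residual degrees of freedom, adjusted by Benjamini and Hochberg over all tested probes. For the site comparison, the mean of 2 animals was tested against 0. Levels are dye channels after loess and between-array scaling, with 1 value per animal.

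The chip is the replicate number in the labels and serves as a block. Checked over all tested probes, how far a polled animal lay from the polled mean correlated with how far the scurred animal of its chip lay from the scurred mean, at 0.237, 0.287, 0.424 and −0.0842 for chips 1 to 4. With scurred animals of other chips the average was −0.132, −0.130, −0.0714 and 0.0580. The fit was tested on simulated data. Each gene was read from the probe with the largest share of spots well above background, then the brightest. Named genes were all members, genes of the other lists with an unadjusted p under 0.05 between horn types (at most 5 a list), and for PTCH1 and GLI1 the 3 most correlated genes. DHH was named besides these as a further ligand. The members and lists were chosen with earlier results of these data known. The number of animals limits the precision.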

Additional observations from a re-analysis of the deposited data

Results flagged for a closer look

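The horn site minus control site difference of the probe described as GLI1, which carries the ARHGAP9 identifier, was 0.57 in polled animal 3 and −0.49 in scurred animal 2 on the log2 scale. The scurred animal thus lay −1.06 from the polled one, with both arrays of each animal on its own side of 0. On these arrays the level of the GLI1 probe was 8.98 and 9.31 at the horn sites of polled animal 3 and scurred animal 2. At their control sites it was 8.41 and 9.80. For HHIP the site differences were 0.44 and −0.44, a difference of −0.88. HHIP was well above background in 2 of the 4 RNAs of these arrays, and not at the horn site of scurred animal 2, so its values are set against RNA at or near background and their signs are no support for a difference. Both were singled out because the 2 animals moved in opposite directions, and the difference was not tested, as each horn type had 1 animal. The opposite signs held on processed signals (0.86 and −0.66 for GLI1, 1.54 and −2.11 for HHIP) and with median centring (0.32 and −0.60, 0.69 and −0.38). The deposited table gave the same values as the processed signals. All settings use the same 4 arrays, so they are no added support for a difference. Skeletal muscle markers had a median site difference of 3.53 in scurred animal 2 and 0.11 in polled animal 3, and their part was not tested. No member's level in the groups of 4 had an animal far enough from the others to pass Dixon's 95% critical value.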

How the results depend on the processing

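No member was called at an adjusted p under 0.05 by limma under any setting run. The lowest adjusted p was 0.229, for SCUBE1 between polled and horned skin without scurred animal 4, and over its settings it reached 1. Dim probes depend on the offset, and few animals limit all values. Other probes of a gene were too dim to test, except SUFU on chip 5 (0.02).

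The count of all probes called between polled and horned skin, 1, became 0 on processed signals, with median centring, in the deposited table and with no replicate block, and ranged from 0 to 1 with an animal or chip left out. Between scurred and horned skin the count, 0, became 1 with median centring and ranged from 0 to 1 with 1 left out. Between scurred and polled skin it became 1 with no sex term and ranged from 0 to 2. Between males and females the count, 3, became 6 on processed signals, 5 in the deposited table, 5 with no replicate block and 1 with the stricter background rule, and ranged from 1 to 4. The block of the fit changed no call of a member, with GLI1 scurred minus polled at −0.344 without it.

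Uncalled differences changed sign under some settings. GLI2 scurred minus horned became 0.106 on processed signals and in the deposited table, 0.0229 with median centring, 0.0092 with no sex term and 0.0331 with no block. PTCH1 scurred minus polled became 0.0145 with no block. For the site, GLI1 became −0.140, HHIP 0.155 and SUFU −0.155 with median centring, and SMO −0.277 on processed signals and in the deposited table.

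With 1 animal or chip left out, polled minus horned ranged from −0.0811 to 0.368 for GLI1, −0.00081 to 0.328 for GLI2, −0.247 to 0.0308 for GLI3 and −0.0487 to 0.230 for PTCH1. Scurred minus horned ranged from −0.319 to 0.0115 for GLI1, −0.155 to 0.162 for GLI2, −0.167 to 0.165 for GLI3 and −0.0717 to 0.0108 for SMO. Scurred minus polled ranged from −0.0453 to 0.261 for GLI3, −0.0821 to 0.212 for PTCH1, −0.238 to 0.301 for SCUBE1, −0.0203 to 0.105 for SMO and −0.227 to 0.110 for SUFU. Male minus female ranged from −0.0264 to 0.416 for GLI1, −0.00073 to 0.312 for GLI2, −0.0774 to 0.115 for HHIP and −0.204 to 0.315 for SCUBE1. The members' median ranged from −0.155 to 0.0365 for scurred minus polled and from −0.0794 to 0.110 for male minus female. The cause of these changes was not tested.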
